A study of Mus musculus with 6 samples.

Results

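DES epithelial cluster 7 is the group of uterine epithelial cells to which the study's own clustering of the DES epithelium gave the number 7. It was taken from the deposited cell metadata, and it held 215 of the 4608 clustered DES cells that have counts, a share of 4.67% (exact Clopper-Pearson 95% interval 4.07 to 5.31%). The remaining 4393 cells fell into 15 other clusters. The cells came from CD-1 mice that received diethylstilbestrol (DES), a synthetic estrogen, at 1 mg/kg/day on days 1 to 5 after birth and were studied at 12 months. Control mice of the same age received the corn oil (CO) vehicle on the same days. One single-cell library was made per treatment from pooled uteri of several mice, with 32387 CO and 16312 DES cells, and spatial RNA was measured in 2 CO and 2 DES sections of 1 mouse each. With 1 library per treatment, and with clusters formed on the same counts that are described here, no test was made between clusters or between CO and DES cells.

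The uterine epithelium consists of a luminal lining and glands that dip into the stroma. Exposure to estrogenic chemicals around birth is a classical model of altered uterine development. In it, epithelial cells can take on basal and squamous features that are not seen in the normal adult uterus. Lgr5 encodes a receptor for R-spondins, secreted proteins that strengthen Wnt signaling, and is a marker of epithelial progenitors in several organs. Crh encodes corticotropin-releasing hormone, the peptide that starts the pituitary stress response.

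Cluster 7 cells were well covered, with a median of 29516 unique molecular identifiers (UMIs) per cell (range 4967 to 181880) against 24419 in the other clusters. Their median mitochondrial share, 8.89%, ranked 15 of 16 clusters and their ribosomal share, 29.0%, ranked 2 of 16. The CO and DES libraries shared 180 cell barcodes, of which 3 were in cluster 7. Levels are given as UMIs summed over the cells of a group per 1000000 UMIs (CPM), with exact Poisson 95% intervals, and ratios carry exact conditional binomial 95% intervals. All these intervals cover counting error only.

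Lgr5 and Crh, the working markers of this cluster here, behaved differently. The study reported Lgr5 in most DES epithelial clusters and as differentially expressed in none of them. The level of Lgr5 (chr10:115450311-115587780 in GRCm38, minus strand) was 9.74 CPM (7.82 to 12.0) in cluster 7 and 3.0 CPM in the other clusters, a ratio of 3.25 (2.56 to 4.08). Across the other 15 clusters it ran from 0.722 CPM in cluster 12 to 7.18 in cluster 8 and 7.11 in cluster 9. Cluster 7 was therefore the highest of 16, but its ratio to cluster 8 was 1.36 (0.932 to 2.0) and to cluster 9 was 1.37 (0.968 to 1.95), so these clusters could not be separated by Lgr5 at this depth. A Lgr5 UMI was seen in 57 of 215 cells (26.5%), with at most 4 in a cell. After each cell was thinned to 3000 UMIs, 9 of 215 cluster 7 cells still held one (4.19%, 1.93 to 7.80%), against 0.783% of cells in the other clusters, and the ratio of levels was 5.20. DES lymphocytes, which should lack the gene, gave 0.939% and mesothelial cells 0.317%. The median depths before thinning were 29516 UMIs in cluster 7, 5599 in lymphocytes and 12329 in mesothelial cells. Lgr5 was thus sparse, and the cluster was set apart far more by other genes.

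Crh (chr3:19693401-19695396, minus strand) was abundant but not particular to these cells. Its level was 250 CPM (240 to 261) in cluster 7 against 137 in the other clusters, a ratio of 1.83 (1.75 to 1.91). Cluster 0 was higher, at 434 CPM, and the other clusters ran from 1.84 CPM in cluster 13 to 180 in cluster 5. Crh was detected in 131 of 215 cells (60.9%) with a median of 2 and a maximum of 159 UMIs per cell, so that its level rested on part of the cluster. Thinned to 3000 UMIs, 31.6% of cluster 7 cells and 20.6% of the others held a Crh UMI, against 2.82% of lymphocytes and 1.22% of mesothelial cells. Both Lgr5 and Crh were seen in 39 cells and neither in 66. In pooled CO epithelium Crh was at 0.04 CPM. Without cells holding 2 or more UMIs of other cell types, which left 16 cells of cluster 7, the Crh ratio was 0.993. That limit was a count per cell, not scaled to depth, and ratios under it are given without intervals. The 5 genes whose levels followed that of Lgr5 most closely over the 16 clusters, among 7132 genes, were Thbs1, Pcbd1, Iah1, Nfyb and Ltbp3, with Pearson correlations of log2(CPM + 1) of 0.861, 0.860, 0.845, 0.844 and 0.843. These are descriptions over 16 clusters of 1 library.

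**Figure D1:**
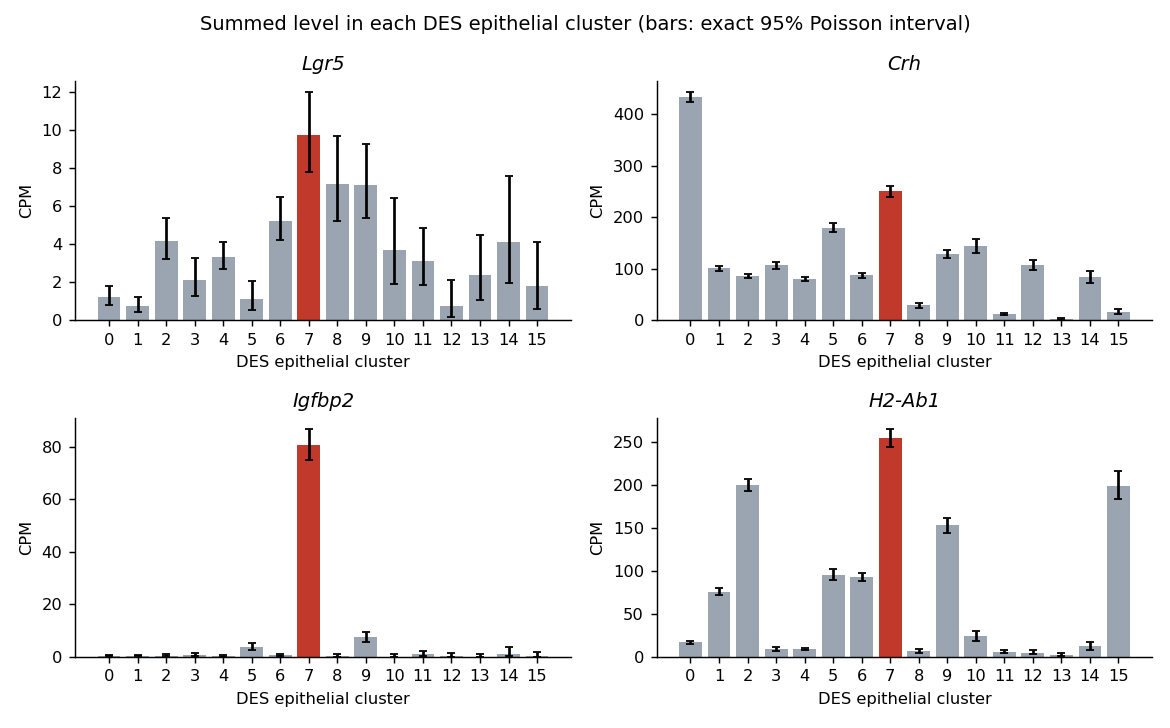
Summed level in CPM (vertical axis, from 0) of Lgr5, Crh, Igfbp2 and H2-Ab1 in each of the 16 DES epithelial clusters (horizontal axis), with cluster 7 in red and exact Poisson 95% intervals as error bars. Igfbp2 stood at 80.7 CPM in cluster 7 and at most 7.37 CPM elsewhere, H2-Ab1 was followed by clusters 2 and 15, and the Lgr5 intervals of clusters 8 and 9 overlapped that of cluster 7.

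Of 2859 genes with at least 50 CPM in cluster 7 or in the other clusters, 60 (2.10%) were at least 2-fold higher in cluster 7 and 49 (1.71%) at least 2-fold lower. With at least 10 CPM in either, 179 of 8228 genes (2.18%) were higher and 223 (2.71%) lower by that fold. In 25 genes (0.874%) cluster 7 was the highest of 16 clusters and at least 1.5 times the next. The 25 largest ratios, the leading genes described here, ran from 85.0 for Igfbp2 to 2.87 for Mid1, and the first gene outside, Gpm6b, stood at 2.75. In 22 of the 25, cluster 7 was the highest cluster, as their choice by ratio to the other clusters favored. The exceptions were Clu and Timp2, higher in clusters 15 and 14, and Il33, at 344 CPM in cluster 14 against 314 in cluster 7. Of 7976 genes with a mean of at least 10 CPM over the 16 clusters, 6.11% were highest in cluster 7.

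Igfbp2 had the largest ratio of these genes, and Igfbp7 and Igfbp5 were also among the first 5. Igfbp2, which binds insulin-like growth factors in the extracellular space, was at 80.7 CPM in cluster 7 and 0.95 CPM in the other clusters, a ratio of 85.0 (71.1 to 102). The ratio was 19.8 without cells holding 2 or more UMIs of other cell types, which left 16 cells of cluster 7. The next cluster, 9, reached 7.37 CPM and cluster 5 had 3.72 CPM, with every remaining cluster at 1.24 CPM or less. The gene lies at chr1:72824503-72852474 on the plus strand, near Igfbp5 at chr1:72857932-72874884. Igfbp5, a second member of the family, was at 155 CPM against 32.4, a ratio of 4.78 (4.50 to 5.07), and the next cluster, 8, had 64.0 CPM. The related secreted protein gene Igfbp7 was at 306 CPM against 40.0, a ratio of 7.65 (7.32 to 8.0), with cluster 9 next at 94.9 CPM. Igfbp2 UMIs were found in 113 of 215 cells (52.6%), and 107 cells (49.8%) held UMIs of all 3 genes. After thinning to 3000 UMIs, 19.5% of cluster 7 cells (14.5 to 25.5%) held an Igfbp2 UMI, against 0.276% of the other clustered cells, 0.469% of lymphocytes and 1.16% of mesothelial cells.

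Igfbp2, Igfbp7 and Pdpn were also high in the 608 DES cells of clusters 8 and 11 of the study's combined CO and DES epithelial clustering, called basal cells here for their levels of the basal keratin gene Krt5, 1808 and 1611 CPM. Igfbp2 was at 368 and 265 CPM and Pdpn, which encodes the membrane glycoprotein podoplanin, at 214 and 232 CPM in those basal cells, against 63.1 CPM for Pdpn in cluster 7 and 8.64 in the other clusters. Before the DES epithelium was clustered, the study took out cells with more than 1 count each of the basal keratin gene Krt14 and the basal transcription factor gene Trp63, so that the levels of Krt14 and Trp63 in cluster 7 are no independent measure. Krt14 and Trp63 were at 6.90 and 0.77 CPM in cluster 7 and 8.70 and 0.63 CPM in the other clusters. Krt5 was at 9.2 CPM against 79.8, a ratio of 0.115. That ratio was 0.0349 without cells holding 2 or more UMIs of other cell types, which left 16 cells of cluster 7. The summed level of 8 basal markers, the filtered genes included, was the lowest of 16 clusters. Basp1 went the other way, at 106 CPM in cluster 7 and 14.8 and 6.68 CPM in basal cells.

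**Figure D2:**
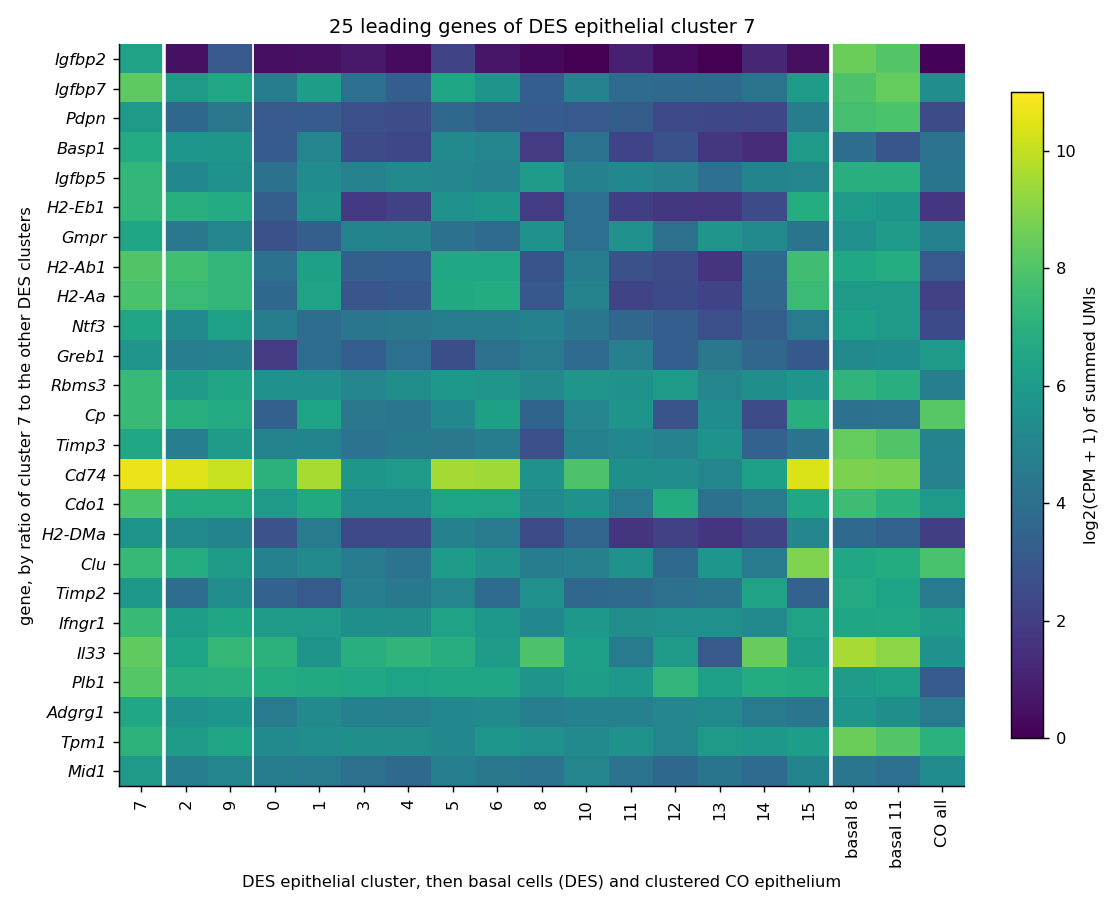
Level of the 25 leading genes (vertical axis, ordered by ratio) as log2(CPM + 1) in color, in cluster 7, in its closest clusters 2 and 9, in the other 13 DES clusters, in the DES basal cells of integrated clusters 8 and 11, and in pooled clustered CO epithelium. Igfbp2 was bright in cluster 7 and in basal cells, weaker in cluster 9 (7.37 CPM) and at 3.72 CPM or less in the other clusters, whereas the class II genes were shared with clusters 2, 9 and 15.

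Genes of major histocompatibility complex (MHC) class II were higher together. These proteins display peptides to helper T cells and are best known from professional antigen-presenting cells, although epithelia can make them too. Gene lists are counted over genes of at least 10 CPM as a mean over the 16 clusters, cluster 7 included. A gene high in cluster 7 can therefore be lifted over that limit by this cluster. Of the 7976 genes that passed, 1.23% were at least 2-fold higher, 6.11% were highest in cluster 7 and the median ratio was 0.97. Of 7 listed class II genes 6 passed, and all 6 were at least 2-fold higher in cluster 7 and highest there of the 16 clusters, with a median ratio of 3.58. Cd74, the invariant chain that escorts class II molecules, was at 1628 CPM against 477, a ratio of 3.41 (3.35 to 3.48). The peptide-binding chains H2-Ab1, H2-Aa and H2-Eb1 were at 254, 230 and 156 CPM, with ratios of 4.11, 3.74 and 4.29. Without cells holding 2 or more UMIs of other cell types, the ratios of H2-Ab1 and H2-Aa were 6.74 and 6.77. That setting left 16 cells of cluster 7. The peptide-loading genes H2-DMa and H2-DMb1 had ratios of 3.36 and 2.30. Ciita, the master activator of class II transcription and the listed gene below that mean, was at 11.5 CPM against 3.58, a ratio of 3.21 (2.58 to 3.96), and cluster 15 was level with it at 11.3 CPM. Ifngr1, a chain of the receptor for interferon gamma, was at 168 CPM against 57.0, while 10 interferon response genes had a median ratio of 1.09.

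Class II levels were graded over clusters and not restricted to cluster 7. The summed class II level was 2384 CPM in cluster 7, 1973 in cluster 2 and 62.8 in the lowest cluster. All 3 peptide-binding chains were detected together in 157 of 215 cells (73.0%), and Cd74 UMIs remained in 91.6% of cells thinned to 3000 UMIs, against 38.2% of the other clustered cells. The 9 immune markers summed to 27.7 CPM in cluster 7 and 24.4 in the others, with Cd3e at 0, Lyz2 at 15 against 12.9 and C1qa at 2.30 against 2.16, and their part in the class II levels was not tested. In DES myeloid cells Cd74 was at 10969 CPM, Lyz2 at 7881 and C1qa at 8780. The 9 stromal markers summed to 122 and 132 CPM, with Dpt and Vcan at 0 and Dcn, detected in 198 of 215 cells, at 83.0 against 91.0. The 5 endothelial markers summed to 2.96 and 3.14 CPM, the 6 mesothelial markers to 21.9 and 28.0, and the 7 muscle and pericyte markers to 5.14 and 3.04, a ratio of 1.69 (1.23 to 2.29), with Cnn1, Actg2 and Rgs5 at 0.

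Class II promoters carry a conserved set of elements near the start of transcription, one of which, the Y box, holds an inverted CCAAT sequence. The letters CTGATTGG were searched on both strands of RefSeq promoter windows (GRCm38.p6, 250 bases before to 50 after each start), where 1346 of 32851 windows (4.10%) held them. Among 4 class II genes with a window, H2-Aa and H2-Eb1 held a match and the windows of H2-DMa and H2-DMb1 did not. Both matching windows are printed 5′ to 3′ on the gene's strand, to show where the match lies, with it in capitals. The window of H2-Aa is chr17:34287774-34288073 (minus strand), with the match 43 bases before the start, and that of H2-Eb1 is chr17:34305617-34305916 (plus strand), with the match 54 bases before it.
H2-Aa: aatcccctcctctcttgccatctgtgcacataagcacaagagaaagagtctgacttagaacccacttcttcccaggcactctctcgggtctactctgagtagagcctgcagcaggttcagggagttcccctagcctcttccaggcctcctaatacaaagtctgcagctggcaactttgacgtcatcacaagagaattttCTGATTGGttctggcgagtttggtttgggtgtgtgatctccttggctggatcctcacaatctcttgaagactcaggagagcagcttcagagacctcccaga
H2-Eb1: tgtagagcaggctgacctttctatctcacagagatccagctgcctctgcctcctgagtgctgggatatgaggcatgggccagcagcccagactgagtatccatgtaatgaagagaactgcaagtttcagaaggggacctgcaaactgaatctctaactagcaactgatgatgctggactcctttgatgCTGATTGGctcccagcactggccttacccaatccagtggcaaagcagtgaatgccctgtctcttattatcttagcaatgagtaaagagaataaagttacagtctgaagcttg
These matches are a description of the letters only.

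Retinoid genes were, in sum, higher in cluster 7, and Dhrs3 and Rdh10 made up most of that sum. Retinol enters cells through the receptor Stra6, is oxidized in steps to retinoic acid, and acts through nuclear receptors that include Rarb, itself a classical retinoic acid target. Of 12 listed genes 4 reached a mean of 10 CPM over the clusters, and of these 1 was at least 2-fold higher in cluster 7, Dhrs3, and 1 at least 2-fold lower, Crabp2, with 3 of the 4 above 1 and a median ratio of 1.5. The summed level of all 12 was 917 CPM against 499.96, a ratio of 1.83 (1.79 to 1.88) that ranked 2 of 16. Rarb and Stra6 lay below that mean and are given for their values in cluster 7. Rarb was at 16.1 CPM against 0.57, a ratio of 28.3 (21.6 to 37.3), with cluster 15 next at 3.19 CPM. The Rarb ratio was 16 in cells thinned to 5000 UMIs and 3.31 without cells holding 2 or more UMIs of other cell types. The latter setting left 16 cells of cluster 7. Stra6 was at 34.4 CPM against 5.22, a ratio of 6.58 (5.76 to 7.51), below cluster 14 at 53.6 CPM. Dhrs3, which returns retinal to retinol, was at 409 CPM against 159, next to cluster 5 at 428, and Rdh10, which makes retinal, was at 305 against 154. Crabp2, which carries retinoic acid to its receptors, was lowest of the 16 clusters at 2.08 CPM against 34.8. The retinoic acid degrading enzyme Cyp26a1 was at 3.17 CPM against 1.29. Rarb was detected in 86 of 215 cells (40.0%), and in 2.79% of them after thinning, against 0.161% of the other cells, 0.344% of mesothelial cells and 0 of 213 lymphocytes, which allows a share of up to 1.41%. In basal cells Rarb was at 20.2 and 20.8 CPM.

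The Rarb promoter is the textbook example of a retinoic acid response element, a direct repeat of the receptor's half-site letters. The letters GTTCA, repeated in the same direction after a gap of 6 bases of any kind, were searched on both strands of the same windows, and 25 of 32851 (0.0761%) held them. These letters follow the known element of Rarb, so a match in that gene was fixed in advance. Rarb (window chr14:16575427-16575726, minus strand) and Cyp26a1 (chr19:37697558-37697857, plus strand) each held a match, 36 and 16 bases before the start, whereas no match was found in the 4 windows of Stra6 or the 3 of Dhrs3. The match in Cyp26a1 was on the reverse strand. Both windows are printed to let the element be compared between the 2 genes, with the match in capitals.
Rarb: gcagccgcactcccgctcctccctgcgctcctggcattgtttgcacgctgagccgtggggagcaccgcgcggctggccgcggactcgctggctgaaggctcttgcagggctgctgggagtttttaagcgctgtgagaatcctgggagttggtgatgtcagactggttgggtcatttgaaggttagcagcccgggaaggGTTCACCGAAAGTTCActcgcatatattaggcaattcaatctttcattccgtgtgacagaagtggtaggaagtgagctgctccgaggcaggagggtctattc
Cyp26a1: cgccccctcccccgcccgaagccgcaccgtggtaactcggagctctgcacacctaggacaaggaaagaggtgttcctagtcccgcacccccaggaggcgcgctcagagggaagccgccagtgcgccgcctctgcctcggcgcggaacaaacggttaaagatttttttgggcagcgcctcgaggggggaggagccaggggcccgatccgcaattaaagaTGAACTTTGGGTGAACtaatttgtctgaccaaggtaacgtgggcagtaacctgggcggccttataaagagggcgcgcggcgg
No measurement of retinoic acid or of receptor binding was part of these data.

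Other leading genes had varied roles. Ntf3, the neurotrophin-3 gene, was at 87.4 CPM against 23.7 but was nearly as high in cluster 9, at 77.2 CPM. Timp3, an inhibitor of matrix metalloproteinases, was at 92.7 CPM against 26.8, a ratio of 3.46 (3.21 to 3.73), and Timp2 at 57.5 against 18.9. The alarmin Il33 was at 314 CPM against 107, and the phospholipase gene Plb1 at 273 against 94.8. Greb1, an estrogen-responsive gene, was at 51.6 CPM against 14.6, a ratio of 3.53 (3.19 to 3.90), while the estrogen receptor gene Esr1 was at 186 against 219 and the progesterone receptor gene Pgr at 61.3 against 98.7. Of 14 estrogen response genes that reached a mean of 10 CPM, 2 were at least 2-fold higher, Greb1 and Clu, and 1 at least 2-fold lower, with a median ratio of 0.87. The summed level of all 17 listed genes, by contrast, was 10372 against 7227 CPM, a ratio of 1.44 (1.43 to 1.44), ranked 3 of 16, and included Ltf, the lactoferrin gene, at 4042 against 2254.

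Among 6 genes of the BMP and TGF-beta list that reached a mean of 10 CPM, 2 were at least 2-fold higher, Id3 and Tgfbi, and 1 at least 2-fold lower, Id2, with a median ratio of 1.71. None of the 6 was highest in cluster 7. The summed level of the 18 listed genes, 534 CPM, ranked 5 of 16, with cluster 9 highest at 854 CPM. Tgfb2 lay below a mean of 10 CPM. The ligand gene Tgfb2 was at 29.7 CPM against 2.07, a ratio of 14.3 (12.1 to 16.9), and cluster 5 was next at 13.0 CPM. Tgfbi, a TGF-beta induced matrix protein, was at 50.7 CPM against 25.1 and Id3, an inhibitor of basic helix-loop-helix factors, at 108 against 51.1, but Id2 was at 70.5 against 145. Other low-level genes with large ratios, picked after their values were seen as the 15 largest ratios at 10 to 50 CPM, included Meg3, a long non-coding RNA, at 29.9 CPM against 0.58 (but without a UMI in the 16 cells of cluster 7 left when cells with 2 or more UMIs of other cell types were taken out), and Fbln5, a matrix protein gene, at 25.5 against 2.59.

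**Figure D3:**
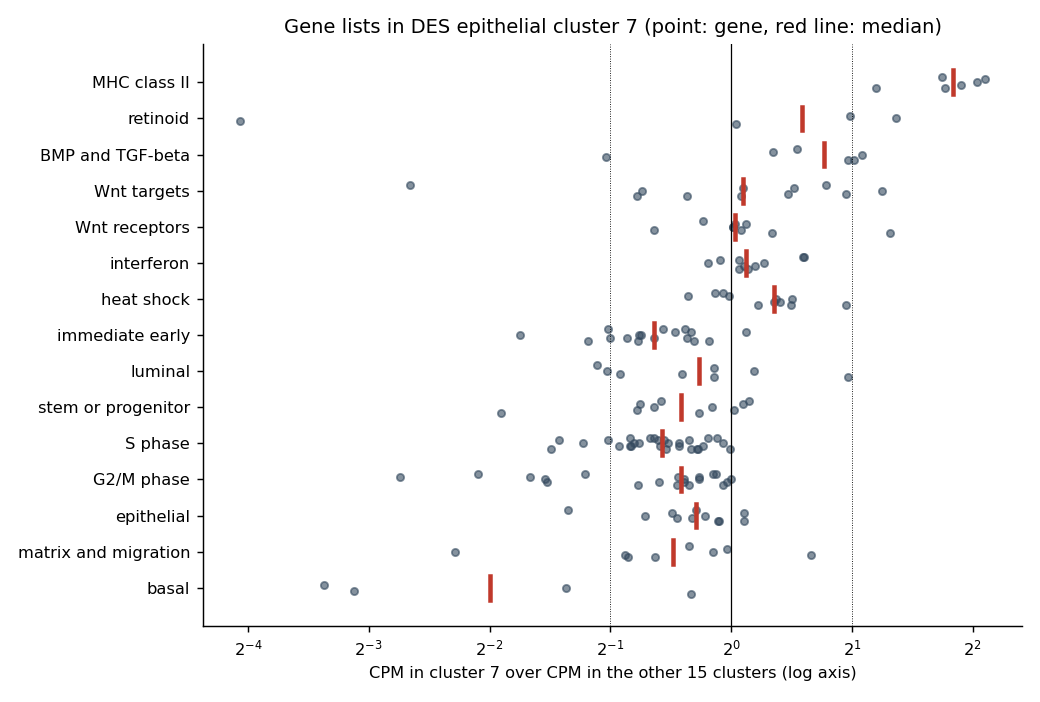
Ratio of CPM in cluster 7 to CPM in the other 15 clusters (horizontal log axis) for each gene of at least 10 CPM as a mean over the 16 clusters in the listed gene groups (vertical axis), with the median of a group as a red line and dotted lines at 2-fold. The 6 class II genes plotted all lay above 2, with a median of 3.58, and the S phase and G2/M phase genes plotted all lay below 1, with medians of 0.672 and 0.752.

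Genes of the cell cycle were lower. All 28 S phase genes that reached a mean of 10 CPM had a ratio below 1, with 4 of them at least 2-fold lower, and all 20 G2/M genes did too, with 6 at least 2-fold lower. Of all 7976 genes 4472 had a ratio below 1 and 2.61% were at least 2-fold lower. Top2a, the topoisomerase of dividing cells, was at 7.66 CPM against 32.8, and 0.930% of cluster 7 cells held a Top2a UMI after thinning, against 5.25% of the others. The other clusters include cycling ones, and by the summed level of G2/M genes (920 CPM) cluster 7 ranked 12 of 16, with cluster 6 highest at 3414 CPM. Immediate early genes, which respond to stimuli and to dissociation of tissue, were below 1 in 16 of 17 cases, with a median ratio of 0.644. The summed level of all 19 listed genes ranked 9 of 16, at 1413 CPM against a median of 1462 over the other clusters, and cluster 9 held 11034 CPM.

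Epithelial identity genes were present at somewhat lower levels. Epcam and Krt18, which are expressed by simple epithelia, were at 862 against 803 and 728 against 676 CPM. Krt8, Krt19 and Cldn7 were each lowest of the 16 clusters, at 541 against 886, 268 against 686 and 492 against 691 CPM, and the summed level of 11 epithelial genes also ranked 16. Of all 7976 genes, 7.95% were lowest in cluster 7. Lama3, Lamb3 and Itgb4, which encode parts of the anchoring structures of the basement membrane, were lowest there as well, at 2.30, 9.30 and 23.1 CPM against 11.2, 17.1 and 35.7. The 15 genes with the smallest ratios ran from 0.0379 for Lypd8 to 0.298 for Serpina1c, with Fxyd4 just outside at 0.318. Several of these ratios turned on 1 other cluster. Lypd8, a surface protein gene, was at 6.24 CPM in cluster 7 and 729 in cluster 1, with a median of 45.7 over the other 15 clusters, and Krt5 reached 645 CPM in cluster 5 with a median of 27.5.

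Genes of the Wnt pathway, in which Lgr5 acts, were mixed. Of 9 Wnt receptor genes that reached a mean of 10 CPM, 1 was at least 2-fold higher, Fzd1, at 25.4 CPM against 10.2, and the median ratio was 1.02. Lgr4, the close relative of Lgr5, was at 21.3 CPM against 33.2. Of 11 Wnt target genes 1 was at least 2-fold higher, Hdac11, at 35.2 against 14.8, and 1 at least 2-fold lower, Cd44, at 2.08 against 13.1, with a median ratio of 1.07. Axin2, a direct Wnt target, was at 17.0 CPM against 8.99, a ratio of 1.89 (1.59 to 2.23), below cluster 8 at 20.5. Tnfrsf19, another Wnt target, was highest in cluster 7 at 102 CPM against 52.5, whereas the progenitor factor Sox9 was at 31.6 against 54.4. Of 4 Wnt ligands that reached the mean, 3 had a ratio below 1, with a median of 0.764, and the summed ratio of 16 ligands was 0.805 (0.767 to 0.845). The summed ratio was 1.06 (1.03 to 1.10) for the 18 listed receptors and 1.25 (1.22 to 1.29) for the 20 listed targets. Wnt7a and Wnt4 were at 42.6 and 66.2 CPM against 63.8 and 101, and Wnt16, below that mean, at 17.7 against 7.51. The 10 stem and progenitor genes that reached a mean of 10 CPM had a median ratio of 0.750, with none at least 2-fold higher and 1 at least 2-fold lower, Gstm7, at 13.7 against 51.4 CPM. The Gstm7 ratio of 0.266 was 0.781 without cells holding 2 or more UMIs of other cell types, which left 16 cells of cluster 7. The summed level of all 16 listed genes ranked 15 of 16.

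By Pearson correlation of log2(CPM + 1) over 3701 genes, the clusters most like cluster 7 were cluster 2 (0.959) and cluster 9 (0.942). Against cluster 2 alone, 49 of 2874 genes were at least 2-fold higher in cluster 7 and 49 at least 2-fold lower, and 16 of the 25 leading genes were at least 2-fold higher. Igfbp2 was about 200-fold higher than in cluster 2, where it had 0.404 CPM (interval of the ratio 91.2 to 545), and Serpinb7, a serine protease inhibitor gene, was at 442 against 57.3 CPM. Class II genes differed less between the pair, with Cd74 at 1391 CPM in cluster 2 and H2-Ab1 at 200 CPM, which cluster 7 exceeded by a ratio of 1.27 (1.2 to 1.34). Against cluster 9, 20 of 2938 genes were at least 2-fold higher and 92 at least 2-fold lower, and 8 of the 25 leading genes were at least 2-fold higher. Of the 92 lower genes 15 were immediate early genes, of 16 such genes compared, among them Fos at 150 CPM in cluster 7 and 2519 in cluster 9. All 25 leading genes were above 1 against each of clusters 2 and 9, as the choice of those genes favored.

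Levels differed between parts of cluster 7. In the study's combined clustering of CO and DES epithelium, 170 of the 215 cells (79.1%) fell in integrated cluster 12, of which they made up 73.3%, and 22 fell in integrated cluster 5. The 170 cells had Igfbp2 at 90.5 CPM (83.9 to 97.5), the 45 other cells of cluster 7 had 32.8 CPM (24.4 to 43.1), and the 62 cells of integrated cluster 12 outside cluster 7 had 1.92 CPM (0.52 to 4.91). Pdpn followed the same order, at 69.9, 29.6 and 12.5 CPM, and so did Rarb at 17.8, 7.72 and 1.44 CPM. Cd74 did not, at 1751, 1026 and 1637 CPM, nor did Crh, at 244, 282 and 269 CPM. Igfbp2 with all 3 class II chains was seen in 95 cells (44.2%), and 62 cells had the class II chains without Igfbp2. Igfbp2, Pdpn and Rarb had been chosen for their ratios in cluster 7, which favors this order. The combined clustering was also formed on these counts, which favors differences between the 170 and the 45 cells. Cp, Timp3 and Mid1 were higher in the 45 cells, at 232, 97.8 and 69.5 CPM, than in the 170, at 165, 91.7 and 56.9 CPM. The other leading genes were lower in the 45 cells.

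Igfbp2 was at 1.12 CPM or less in each of the 15 CO clusters. The CO cluster most like cluster 7 was CO cluster 12, with a correlation of 0.848. In its likeness to that CO cluster, cluster 7 ranked 11 of the 16 DES clusters, led by clusters 9, 11 and 2 at 0.898, 0.888 and 0.874. CO cluster 12 held the highest Lgr5 level of the CO clusters, 39.6 CPM, above the 9.74 CPM of cluster 7, but its Igfbp2 was at 0.57 CPM and its Cd74 at 57.1. Over pooled CO epithelium Igfbp2 was at 0.09 CPM, Rarb at 0.0381, Plb1 at 7.55, H2-Ab1 at 7.30 and Cd74 at 28.8. Other leading genes were as high in CO epithelium, such as Cp, the ceruloplasmin gene, at 285 CPM and Greb1 at 60.1 CPM. Treatment and library cannot be told apart in these values.

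The tissue sections are the only replicated comparison, and they address whether the genes that lead in cluster 7 differ between these DES and CO sections. The study chose these mice after a pathologist had looked for adenocarcinoma in the DES sections, and cored the blocks to areas of interest. It reported a substantial tissue fold in a CO section and limited identification of clusters in a DES section. Most of its analyses used the other section of each group. Which numbered sections these were was not determined. In bulk sums over a section, fewer cells of a type and less RNA per cell cannot be told apart. Sections held 1357 to 1834 spots and 9117099 to 12506177 UMIs. Of 14098 genes tested with edgeR's quasi-likelihood test, 747 (5.3%) passed at a Benjamini-Hochberg adjusted p of 0.05, of which 376 (2.67%) were higher and 371 (2.63%) lower in DES. Of the 25 leading genes 6 passed, 4 higher and 2 lower. The 2 DES sections both lay above the 2 CO sections for 13 leading genes (52.0%, against 28.6% of all genes) and both below for 6 (24.0%, against 27.8%), and the median log2 fold change was 0.78. The leading genes had to reach 50 CPM in DES cells, with no such condition in CO cells. That choice favors higher values in DES sections, so the shares of all genes are not a like comparison.

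Il33 was at 27.6 and 24.9 CPM in the CO sections and 273 and 283 CPM in the DES sections, a log2 fold change of 3.40 ± 0.18 (SE, edgeR adjusted p = 0.014). Plb1 was at 8.66 and 6.72 CPM in CO and 61.1 and 49.5 in DES, a log2 fold change of 2.84 (edgeR adjusted p = 0.020). Pdpn was at 6.82 and 16.8 CPM in CO and 76.3 and 89.7 in DES, a log2 fold change of 2.82 ± 0.45 (edgeR adjusted p = 0.040). Basp1, which encodes a membrane-associated signaling protein, was at 4.90 and 4.89 CPM in CO and 19.8 and 22.6 in DES (log2 fold change 2.11, edgeR adjusted p = 0.021). These 4 genes were higher in both DES sections with no overlap. All 8 basal markers were higher in both DES sections as well, against 28.6% of all genes, with a median log2 fold change of 5.12. Their part in the Pdpn result was not tested. Cp and Tpm1 fell. Cp was at 104 and 58.7 CPM in CO and 17.3 and 17.9 in DES (log2 fold change -2.21, edgeR adjusted p = 0.033), and Tpm1, a tropomyosin gene abundant in muscle, at 1628 and 1433 against 412 and 440 (log2 fold change -1.85, edgeR adjusted p = 0.021). All 7 muscle and pericyte markers passed as lower in the DES sections, against 2.63% of all genes, and the part of this in the Tpm1 result was not tested. Within the 25% of spots of each section richest in epithelial genes, the Tpm1 log2 fold change was 0.80 and did not pass.

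**Figure D4:**
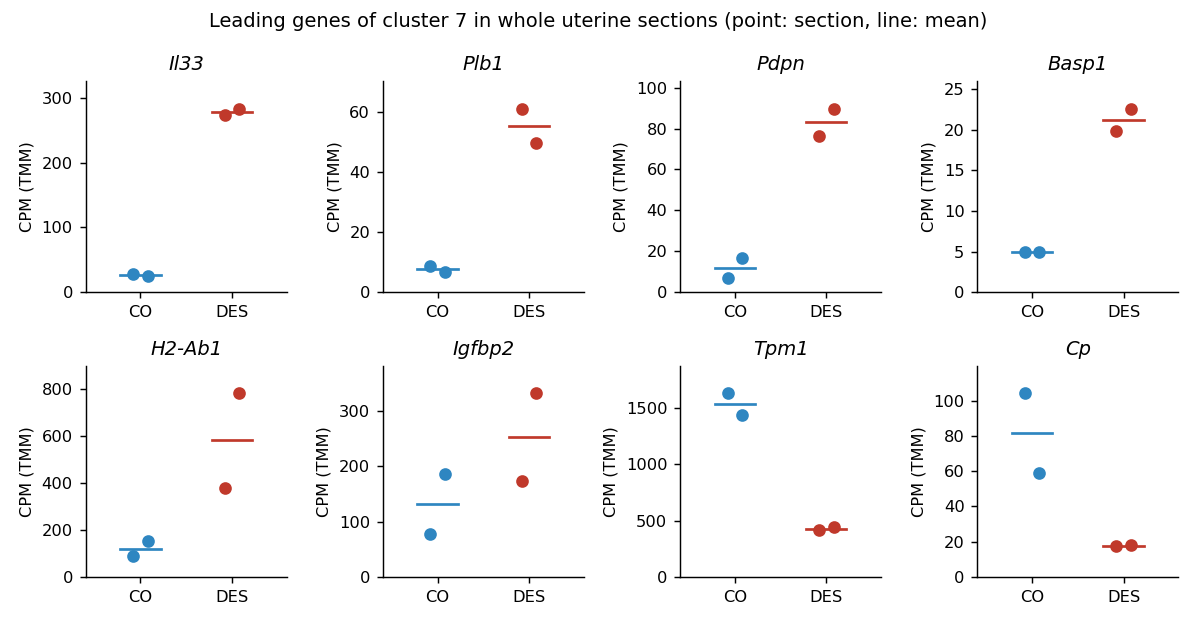
Level in CPM, scaled by TMM factors (vertical axis, from 0), of 8 leading genes of cluster 7 in the CO (blue) and DES (red) sections, where each point is 1 section and the line is the mean of 2. Il33, Plb1, Pdpn and Basp1 were higher and Tpm1 and Cp lower in both DES sections, H2-Ab1 was higher without passing the test, and the Igfbp2 points overlapped.

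Igfbp2, the gene that led cluster 7, did not pass, at 76.7 and 186 CPM in CO and 173 and 332 in DES (log2 fold change 0.94, edgeR adjusted p = 0.349). Its CO section levels were far above the 0.09 CPM of clustered CO epithelium, and the part of non-epithelial cells in the section values was not tested. H2-Ab1 was at 88.5 and 151 CPM in CO and 381 and 783 in DES (log2 fold change 2.28, edgeR adjusted p = 0.062). All 7 class II genes were higher in both DES sections, against 28.6% of all genes, but none passed. Both DES sections also lay above the CO sections for 8 of 9 immune markers, of which 1 passed, and their part in the class II values was not tested.

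Of 12 retinoid genes, 2 passed, both higher, against 2.67% of all genes. Both DES sections lay above the CO sections for 8 and below for 2, against 28.6% and 27.8% of all genes. Stra6 was at 3.67 and 6.72 CPM in CO and 84.1 and 66.6 in DES (log2 fold change 3.86, edgeR adjusted p = 0.021), and Dhrs3 at 131 and 188 against 655 and 931 (log2 fold change 2.32, edgeR adjusted p = 0.028). Rarb was at 0.44 and 2.21 against 3.79 and 3.96 CPM and did not pass (edgeR adjusted p = 0.284). Basal cells carry Rarb as well, and all 8 basal markers were higher in both DES sections, against 28.6% of all genes. Of these markers 2 passed the test. The part of basal cells in the retinoid values was not tested. The share of cluster 7 in the section values was not tested. Crh was at 0 in both CO sections and at 12.6 and 76.9 CPM in the DES sections (edgeR adjusted p = 0.065). Lgr5 had no UMI in the CO sections and 6 and 4 in the DES sections, too few to test.

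Within those epithelial-rich spots, 14 of the 25 leading genes passed, 12 higher and 2 lower, beside 670 of 12082 genes (5.55%), 414 higher and 256 lower. The choice of the leading genes by their levels in DES cells favors higher calls here too. Without DES section 1 or DES section 2, none of the 25 passed, where 14 and 3 genes passed in all. Without CO section 1 or CO section 2, 16 and 13 of the 25 passed, where 19.4% and 16.1% of all genes did. The number of calls, over the leading genes as over all genes, fell when either DES section was left out and rose when either CO section was. It thus depended on which arm was left with 1 section, whose spread is then taken from the other arm.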

How the data were processed

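UMIs were measured in 1 CO and 1 DES single-cell library and in 2 CO and 2 DES Visium sections. The authors aligned and counted reads on mm10 (submitters' processing notes: bcl2fastq 2.20.0.422, Cell Ranger 3.0.1, Space Ranger 1.2.2), clustered epithelial cells with Seurat, having dropped doublets (scran) and looked for swapped barcodes (DropletUtils). The deposited counts are UMIs per gene with no normalization, and the deposited saturation is a fraction of reads that the authors computed per cell and was not used. Supplementary comparison tables of the authors were not used.

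Each cluster's or section's UMIs were added up per gene and scaled to CPM. Genes were compared at 50 CPM in either group, with a mean of 10 CPM over the 16 clusters for gene lists (a choice made after seeing the data), and a count of 0 was given a limit of 3 UMIs. Named genes were the 25 largest and 15 smallest ratios, genes highest in cluster 7, the list genes, and the 5 genes most like Lgr5. Values of 1 list gene are not reported here. Members and lists were chosen with earlier results of these data known. Shares of cells were thinned to 3000 UMIs with a fixed seed, leaving out shallower cells (0 in cluster 7, 49 in the other clusters). Intervals were exact at 95%.

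Sections were tested with edgeR 4.0.16 (TMM, its low-count filter, quasi-likelihood test, Benjamini-Hochberg adjustment over all genes), with DESeq2 1.42.0 as an alternative. Each section is 1 mouse, and p-values measure the spread between these sections. With 2 against 2, an exact test over sections could not reach 0.05. In data simulated for this comparison over 14098 genes, 92 genes were changed 4-fold and 108 were changed 2-fold. Of those that then passed the low-count filter, 63.6% and 1.85% were called, with 6 false calls. Section replicate numbers were given in accession order and pair nothing. Before TMM scaling the median gene was shifted by 0.20 (log2) between DES and CO, and changes are given after it. Alternatives covered weighting of cells, thinning, depth totals, mitochondrial share, cells with UMIs of other cell types, the CPM minimum, size factors, filters, a replicate block, epithelial-rich spots and each section left out.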

Additional observations from a re-analysis of the deposited data

How the results depend on the processing

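The count of genes at least 2-fold higher in cluster 7 stayed within 1.5 times 60 under every alternative except the 10 CPM minimum, where 179 genes were higher and 223 lower. The lower count was 74 in cells thinned to 3000 UMIs and 113 without cells holding 2 or more UMIs of other cell types, which left 16 cluster 7 cells and 428 others. There the Lgr5 ratio was 2.33, the Crh ratio 0.993, the Igfbp2 ratio 19.8, the Rarb ratio 3.31 and the Meg3 ratio 0, with Basp1 at 3.11, Cp at 6.17, Clu at 10.1, Tgfb2 at 22.3, H2-Ab1 at 6.74, H2-Aa at 6.77, Krt5 at 0.0349 and Gstm7 at 0.781. Thinned to 3000 UMIs, H2-DMa was at 2.24 and Lypd8 at 0.0616. The Lgr5 ratio was 4.52 as a mean per 10000 UMIs and 5.20 and 4.79 in cells thinned to 3000 and 5000 UMIs, and the Crh ratio was 1.38, 1.38 and 1.47 in the same settings. Against the unweighted mean of the other 15 clusters the Crh ratio was 2.35. In alternatives chosen after seeing the data, the Crh ratio was 1.59 without the cycling clusters 4 and 6, and leaving out cells with over 4 UMIs of other cell types per 10000 kept 193 cluster 7 cells and gave 60 higher genes, an Lgr5 ratio of 3.14 and a Crh ratio of 1.88.

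In the sections, 747 genes and 6 leading genes passed in edgeR. DESeq2 gave 1761 and 16, and epithelial-rich spots gave 14 leading genes. With a replicate block, 527 genes and 11 leading genes passed. The numbers do not pair the sections (correlation of deviations -0.01 over 14098 genes). With each section left out, 3 to 2819 genes and 0 to 16 leading genes passed. The lone section of an arm is then assumed to vary like the other arm. Directions were reversed for Mid1 with the block (log2 0.24), and in epithelial-rich spots for Timp2 (1.26), Ifngr1 (-0.24) and Tpm1 (0.80). With a section left out the log2 fold change ran across 0, from -0.080 to 0.39 for Ifngr1, -0.46 to 1.31 for Clu, -0.53 to 0.067 for Timp2, -1.52 to 2.30 for Mid1 and -0.24 to 0.21 for Adgrg1. Mid1 passed without CO section 2 (edgeR adjusted p = 0.010). The cause was not tested. Depth limits Lgr5 and Rarb in single cells, and Lgr5 in sections.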
